A study of Mus musculus with 6 samples.

Results

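Emx1, Emx2, Lhx2, Six3, Otx1, Nr2f1, Nr2f2 and Dmrta2 encode transcription factors that pattern the embryonic forebrain. They were taken by name, as 8 of the 51733 gene symbols counted in each library, and their levels were followed library by library in neural progenitor cells (NPCs) of control and Ybx1-KO mouse embryos. The NPCs were sorted for Sox2-eGFP from whole neural tubes of E13.5 embryos (midway through gestation), on a C57BL/6 background, and total RNA was sequenced in paired reads from stranded libraries. The 3 control libraries came from wildtype embryos, which the paper calls sibling controls. The 3 Ybx1-KO libraries came from embryos homozygous for the Ybx1 tm1Ley allele, a constitutive knockout carried in every cell of the embryo. All 6 libraries were sorted on the same Sox2 reporter allele, in which eGFP reports Sox2 expression. The paper lists that reporter line under a mixed strain name, so the C57BL/6 background may not be pure. A whole neural tube contains brain and spinal cord, so each library mixes progenitors from every level of the body axis. Ybx1-KO embryos often have an open brain (exencephaly), and whether a library came from such an embryo, or from pooled embryos, is not given in the sources used here. The titles of control 1 and 2 share their first number, as do those of Ybx1-KO 1 and 2. No such number is shared between a control and a Ybx1-KO library, so the titles do not show littermates across genotypes. What the number stands for is not given, and it cannot be told apart from genotype. No source says that the libraries of a group came from separate embryos. The n of 3 therefore counts libraries, and p-values measure the spread between these libraries, which may be partly technical.

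In the early neural plate, signals from local organizing centres divide the front of the neural tube into telencephalon, eye field and diencephalon, and these factors set up and hold that map. Six3 acts at the anterior end, where it represses Wnt genes and protects the forebrain from posterior fates. Otx1, a close relative of the head gene Otx2, acts in forebrain and midbrain. Lhx2, a LIM homeodomain factor, defines cortical against hem identity and is needed for the eye. Emx1, Emx2 and the DM-domain factor Dmrta2 (also called Dmrt5) act in the dorsal telencephalon, where the cortex forms. The orphan nuclear receptors Nr2f1 and Nr2f2 (COUP-TFI and COUP-TFII) divide the cortex into areas and mark caudal and ventral territories, and unlike Emx1 they are also widely used outside the forebrain.

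YBX1 is a Y-box protein, named after an inverted CCAAT element that Y-box proteins were first described on, so the starts of the genes were read for that element. The RefSeq table of promoters on GRCm38.p6 (250 bases before to 50 bases after each start) held 9 windows for 7 of the 8 genes. The letters CTGATTGG, searched on both strands, stood in 4.10% of all 32851 windows and in 1 of the 9, that of Dmrta2. The shorter core GATTGG, which those letters contain, stood in 16.1% of all windows and in 3 of the 9. CCAAT, which overlaps the core on the opposite strand, stood in 37.4% of all windows and in 4 of the 9, those of Dmrta2, Emx2, Nr2f2 and Six3. The stretches with the core are shown because they are where these promoters match letter for letter. Capitals mark the element (CTGATTGG in Dmrta2 and GATTGG in the others, on either strand), and each is read on the plus strand, which is the strand of the gene.
Dmrta2, chr4:109977916-109977943: gcgggcccggCCAATCAGagcgccgact
Six3, first site, chr17:85620673-85620698: tctcagtattGATTGGcagggctgac
Six3, second site, chr17:85620692-85620717: ggctgacagtGATTGGcagtggttgc
Emx2, chr19:59458659-59458684: gtaatagcgaCCAATCatcaagccat
The Dmrta2 element began at position -99 from the RefSeq start, the Six3 sites at -151 and -132, and the Emx2 site at -21. The GENCODE annotation, used for the gene coordinates below, starts Six3 at chr17:85613608 and Emx2 at chr19:59458372. By those starts the Six3 and Emx2 sites lie inside the genes. A match of letters is a description of sequence and is not evidence of binding.

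The libraries held 4743279 to 23883542 counts on genes, with the 3 Ybx1-KO libraries the shallowest. Ybx1 itself stood at 235, 523 and 301 CPM (counts per 1000000 counts on genes, with TMM-scaled library size) in control 1 to 3 and at 124, 54.5 and 9.51 CPM in Ybx1-KO 1 to 3, so the groups did not overlap and every knockout library still held Ybx1 counts. The 10 neural progenitor markers summed to 1178 to 2018 CPM, and the 10 neuron markers summed to 1360 to 4802 CPM, so transcripts of newborn neurons were abundant in the sorted cells. Ybx1-KO 3 stood apart, since 7.22% of its read pairs fell on genes against 18.0% to 24.7% in the other libraries. Its 1729 olfactory, vomeronasal and taste receptor genes, which should be silent here, summed to 3022 CPM against 24.0 to 104 CPM elsewhere.

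The balance of regions differed sharply between libraries of the same genotype. Dorsal telencephalon markers, which mark the future cortex, summed to 933 CPM in control 1 and 930 CPM in control 3 but to 52.0 CPM in control 2. In Ybx1-KO 1, 2 and 3 they summed to 80.8, 94.5 and 45.0 CPM. Hox genes, which are used in hindbrain and spinal cord and silent in the forebrain, ran the other way, at 128 and 320 CPM in control 1 and 3, at 1051 CPM in control 2, and at 1314, 1362 and 666 CPM in the knockouts. Control 2 therefore sat with the Ybx1-KO libraries and not with its own group.

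The forebrain markers (dorsal and ventral telencephalon and diencephalon) made up 89.9% of forebrain marker and Hox CPM in control 1 and 81.3% in control 3. They made up 16.5% in control 2, and 17.5%, 17.3% and 17.2% in Ybx1-KO 1, 2 and 3. The groups overlapped (two-sided exact permutation test, p = 0.4, where 3 against 3 cannot go below 0.1). This percentage is a ratio of marker RNA and no measure of dissected tissue, and in bulk RNA fewer cells of a type and less RNA per cell cannot be told apart. The adult share of the beta-globin RNA from residual blood cells, chosen after the values were seen, split the libraries the same way. Hbb-bs and Hbb-bt made up 80.7% and 67.9% of their sum with embryonic Hbb-y in control 1 and 3, and 4.90% in control 2. In the knockouts that share lay between 3.51% and 7.11%. Within the forebrain sum, the diencephalon and eye field markers ran against the telencephalon markers. They summed to 10.2, 101 and 25.8 CPM in control 1 to 3 and to 125, 90.4 and 46.4 CPM in Ybx1-KO 1 to 3. A low percentage of forebrain markers therefore does not mean that diencephalon markers were low.

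**Figure D1:**
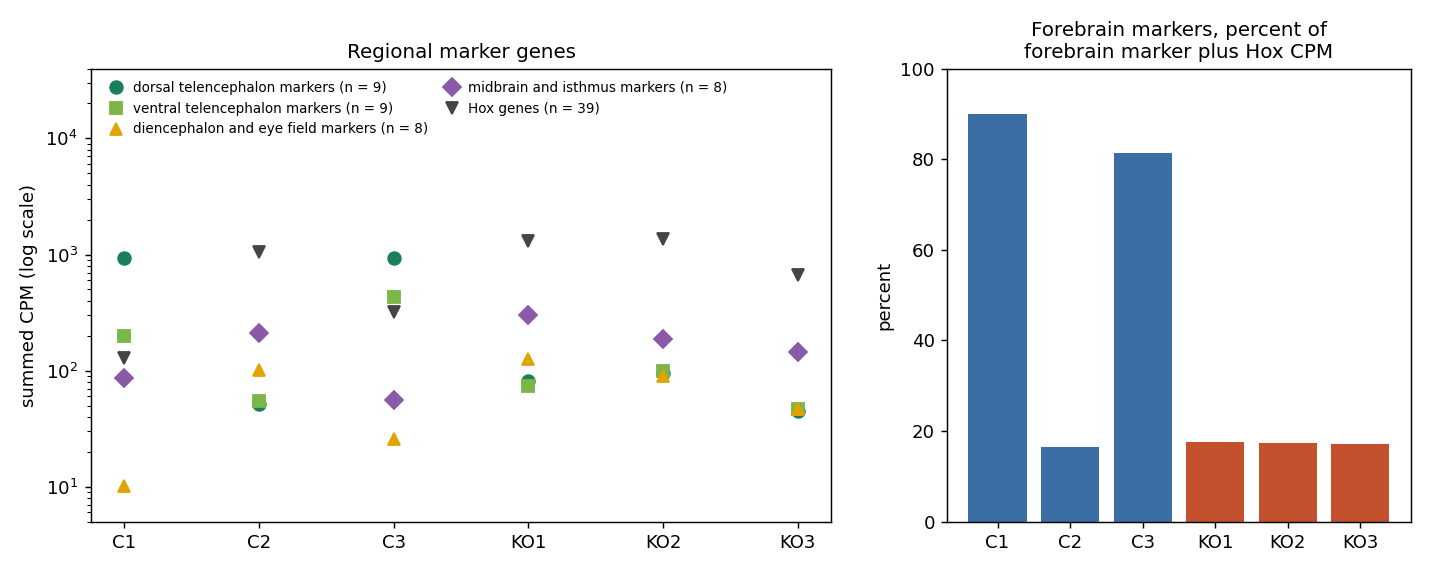
Left, summed CPM (log scale) of each regional marker list in control (C1 to C3) and Ybx1-KO (KO1 to KO3) libraries. Right, forebrain marker CPM as a percent of forebrain marker and Hox CPM, in control (blue) and Ybx1-KO (orange) libraries. The bar of control 2, at 16.5%, stands beside the 3 Ybx1-KO bars at 17.2% to 17.5% and far below control 1 and control 3.

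Against that background, none of the 8 factors passed the test between Ybx1-KO and control. The spread between libraries of a group was wide (common biological coefficient of variation 0.80), so the absence of a call does not show that levels were alike. Each of the 8 passed the filter on low values, a mean above 1 FPKM (counts per kilobase of exon and per 1000000 counts on genes) in either group. With edgeR's quasi-likelihood test, 0 of the 8 were called in either direction (adjusted p under 0.05 with more than a 1.5-fold change). The background was 0.00% in each direction over 21328 tested genes, and the smallest adjusted p of any gene was 0.167. DESeq2 called 0 of the 8, against 0.464% of all tested genes higher and 0.380% lower, and limma-voom called 0 of the 8 against 0.00%. At an unadjusted p below 0.05, 1 of the 8 was higher (Six3) and 0 were lower, against 6.96% and 4.26% of all tested genes. The 3 control and the 3 Ybx1-KO values overlapped for every factor, whereas the groups did not overlap for 13.1% of tested genes (4.98% higher and 8.16% lower in Ybx1-KO). The log2 fold change was above 0 for 6 of the 8 factors and for 61.3% of all tested genes, with medians of 0.64 and 0.31. The median of all genes was 0.01 without Ybx1-KO 3 (15184 genes tested) and -0.07 when the 21328 genes were held fixed. With all libraries it was 0.08 under edgeR's filterByExpr filter. The upward lean of all genes thus depended on that library and on the filter. Without Ybx1-KO 3 the same 6 factors stayed above 0, from 0.71 (Emx2) to 1.84 (Six3), and Emx1 (-2.41) and Lhx2 (-0.29) stayed below 0. Ybx1-KO 3 held the lowest knockout CPM of each of those 6, so leaving it out could hardly lower them. That fit therefore does not set the factors apart from other genes, and the share of all genes above 0 in it was not computed. Emx2 fell below 0 without control 2 (-0.02) and without Ybx1-KO 1 (-0.15).

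**Figure D2:**
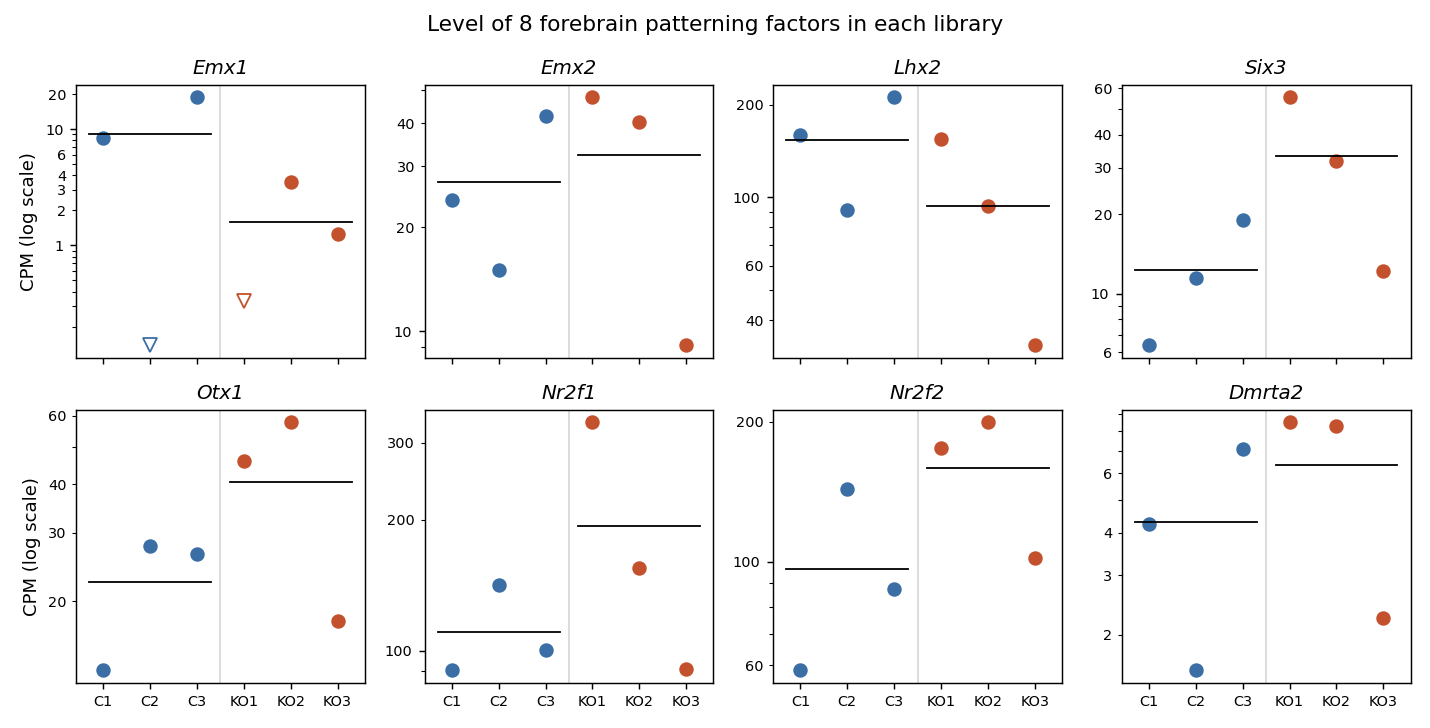
CPM (log scale, a separate axis for each gene) in each control (blue) and Ybx1-KO (orange) library, with horizontal lines at the group means. Open triangles are libraries with fewer than 3 counts, drawn at the CPM that 3 counts would give. In all 8 panels the range of the blue points overlaps that of the orange points.

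Among the anterior factors, Six3 had the largest positive fold change. It stood at 6.38, 11.5 and 19.1 CPM in control 1 to 3, and at 55.5, 31.9 and 12.2 CPM in Ybx1-KO 1 to 3. Ybx1-KO 1 and 2 were above every control, and Ybx1-KO 3 lay between control 2 and control 3. The means were 12.3 ± 6.38 CPM in control and 33.2 ± 21.7 CPM in Ybx1-KO (SD, n = 3 each). The log2 fold change was 1.43 ± 0.53 (SE), with p = 0.0152 before and 0.43 after adjustment in edgeR, and the exact permutation test gave p = 0.2. Control 1, with the highest share of forebrain markers, had the lowest Six3, but control 3, with the next highest share, had the highest Six3 of the controls. Leaving out each library in turn gave log2 fold changes from 0.80 (without Ybx1-KO 1) to 1.89 (without control 3), with adjusted p from 0.0756 to 0.783 in edgeR, and summing the libraries that share a title number gave 0.94.

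Six3 counts carry a limit from the locus. The gene (GRCm38 chr17:85613608-85629302, plus strand) overlaps the antisense transcript Six3os1 over 4791 bases, and the strand setting of the counting is not given in the sources used here, so reads in that stretch cannot be assigned with certainty. Six3os1 stood at 14.2, 16.0 and 27.3 CPM in control 1 to 3 and at 25.0, 29.4 and 17.1 CPM in Ybx1-KO 1 to 3, with a log2 fold change of 0.32 ± 0.41 (adjusted p = 0.73, edgeR). Its level spanned a narrower range than that of Six3. A further antisense gene, Gm28528, and 5 small RNA genes within Six3 each stayed below 4 CPM in every library.

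Otx1, the forebrain and midbrain factor, stood at 13.3, 27.8 and 26.4 CPM in control 1 to 3 and at 46.0, 57.8 and 17.8 CPM in Ybx1-KO 1 to 3. Its pattern was that of Six3 at smaller size, with Ybx1-KO 1 and 2 above every control and Ybx1-KO 3 within the controls. The log2 fold change was 0.85 ± 0.46 (adjusted p = 0.45, edgeR), on means of 22.5 ± 8.01 and 40.5 ± 20.5 CPM (SD, n = 3), and it was 0.57 without control 1 and 0.46 without Ybx1-KO 2. Otx2, the paralogue that makes and keeps the anterior head, stood at 86.0, 81.8 and 65.2 CPM in the controls and at 51.1, 73.9 and 39.5 CPM in the knockouts (log2 fold change -0.50 ± 0.38, adjusted p = 0.54, edgeR). Per kilobase, Otx1 was below Otx2 in all 6 libraries. The log2 ratio of Otx1 to Otx2 FPKM (0.1 added to each) was -3.01, -1.90 and -1.64 in the controls and -0.51, -0.71 and -1.49 in the knockouts. These ratios did not overlap, and their difference of 1.28 had p = 0.1 in the exact permutation test, the smallest that 3 against 3 allows. Of the 6 pairs of a factor with a relative that were compared, 1 did not overlap between the groups, and it was this pair. Among single tested genes the groups did not overlap for 13.1%. No share over other gene pairs was computed, so nothing particular to this pair can be read from it.

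Lhx2 had rank 1 of the 8 by FPKM in control 1 and 3 and rank 2 or 3 elsewhere, and its level was lower in the knockouts on average but not beyond the spread. It stood at 159, 90.8 and 211 CPM in control 1 to 3 and at 154, 93.7 and 33.2 CPM in Ybx1-KO 1 to 3. The first and second knockouts matched control 1 and control 2 closely, and Ybx1-KO 3 was the lowest library. The means were 154 ± 60.4 and 93.8 ± 60.7 CPM (SD, n = 3), and the log2 fold change was -0.71 ± 0.51 (adjusted p = 0.52, edgeR). It was -0.29 without Ybx1-KO 3, -0.41 without control 3 and -1.31 without Ybx1-KO 1 (unadjusted p = 0.0158, adjusted p = 0.187, edgeR). Within the controls Lhx2 was lowest in control 2, the library with the lowest share of forebrain markers. Lhx9, its paralogue, was likewise lowest in Ybx1-KO 3, at 27.6 CPM, and had a log2 fold change of -0.34 ± 0.47 (adjusted p = 0.74, edgeR). A pair of antisense genes lies within Lhx2, Gm27197 and Gm13584, and neither passed 2.15 CPM in any library.

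Emx1, the factor most restricted to the dorsal telencephalon, varied more than any other of the 8. Control 1 to 3 had 179, 2 and 375 counts, or 8.45, 0.092 and 18.8 CPM. Ybx1-KO 1 to 3 had 0, 34 and 9 counts, or 0, 3.48 and 1.26 CPM. The counts of 2 in control 2 and 0 in Ybx1-KO 1 are below 3 counts, which would have been 0.138 and 0.335 CPM there. Control 1 and 3, the libraries rich in forebrain markers, were above all others, and control 2 lay below Ybx1-KO 2 and 3. The log2 fold change of -2.51 ± 1.30 had an adjusted p of 0.45 in edgeR, and the exact permutation test gave p = 0.4. When Ybx1-KO 2 was left out it was -4.01 with an adjusted p of 0.0108 in edgeR, the only call of any of the 8 over the 21 alternatives, in a fit that called 1.01% of genes lower. The adjusted p was 0.0968 when the tested genes were held fixed, with 0.638% of genes called lower. Without control 3 the log2 fold change was -1.42. A library at 0 makes this value depend on the prior count, so it is given as fitted and not as a bound.

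Emx2, the wider dorsal factor, did not follow its paralogue. It stood at 23.9, 15.02 and 41.9 CPM in the controls and at 47.6, 40.3 and 9.09 CPM in the knockouts. Both the highest value and the lowest belonged to Ybx1-KO libraries. The log2 fold change was 0.26 ± 0.53 (adjusted p = 0.83, edgeR), and it changed sign when control 2 was left out (-0.02) and when Ybx1-KO 1 was left out (-0.15), so no direction can be given. The log2 ratio of Emx1 to Emx2 FPKM was -1.02, -5.07 and -0.69 in the controls and -7.39, -2.97 and -2.27 in the knockouts, and again control 2 lay among the knockouts. The groups overlapped (exact permutation test, p = 0.5). The antisense gene Emx2os overlaps Emx2 over 264 bases and stood between 1.84 and 10.3 CPM.

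Dmrta2, which acts in the cortical hem and the cortex, had the lowest mean FPKM over the 6 libraries, although Emx1 was below it in 4 of them. It stood at 4.25, 1.57 and 7.10 CPM in the controls and at 8.48, 8.28 and 2.24 CPM in the knockouts, from 16 to 142 counts. Ybx1-KO 1 and 2 were above every control, and Ybx1-KO 3 was below all libraries but control 2. Its fitted difference was 0.56 ± 0.78 on the log2 scale (adjusted p = 0.74, edgeR). It ran from 0.17 without control 2, and 0.26 and 0.29 without Ybx1-KO 1 and Ybx1-KO 2, to 0.96 without Ybx1-KO 3 and 1.13 without control 3, and was 0.05 when libraries sharing a title number were summed. Its relative Dmrt3, also a dorsal telencephalon factor, had a like pattern, at 6.71, 5.21 and 13.6 CPM in the controls and 15.4, 19.1 and 4.48 CPM in the knockouts. The log2 ratio of Dmrta2 to Dmrt3 FPKM stayed between -1.79 and -0.87 in all 6 libraries, and differed by 0.04 between the group means (exact permutation test, p = 0.9). Dmrta2os, which starts beside Dmrta2 on the opposite strand, did not pass 1.68 CPM.

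Nr2f1, the COUP factor graded across the cortex, had the highest mean FPKM of the 8. It stood at 90.2, 141 and 101 CPM in the controls and at 334, 155 and 90.7 CPM in the knockouts. Ybx1-KO 1 was far above all other libraries, and Ybx1-KO 3 was level with control 1. In edgeR its log2 fold change was 0.80 ± 0.48 (adjusted p = 0.47, edgeR), and 0.09 without Ybx1-KO 1, so its size rested on that library. The antisense gene A830082K12Rik, which overlaps Nr2f1 over 1741 bases, stood between 40.4 and 72.4 CPM and was lowest in Ybx1-KO 1.

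Nr2f2, the relative of Nr2f1 in caudal and ventral cells, stood at 58.4, 143 and 87.5 CPM in the controls and at 176, 199.5 and 102 CPM in the knockouts. Ybx1-KO 3 lay between control 2 and control 3, and the other knockouts were above every control. Its log2 fold change was 0.72 ± 0.44 (adjusted p = 0.48, edgeR) on means of 96.4 ± 43.1 and 159 ± 51.0 CPM (SD, n = 3). It was 0.46 without control 1, 0.47 without Ybx1-KO 2 and 1.13 without control 2. Within the controls Nr2f2 was highest in control 2, where Lhx2 was lowest. B130024G19Rik, which overlaps Nr2f2 over 1826 bases on the opposite strand, stood between 2.23 and 23.2 CPM. The log2 ratio of Nr2f1 to Nr2f2 FPKM overlapped between the groups, with a difference of -0.13 (exact permutation test, p = 0.7).

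The scale of the libraries decided whether the groups overlapped for 3 factors. Scaled by the total count on genes and not by TMM, Six3, Otx1 and Nr2f2 had every Ybx1-KO value above every control value. In FPKM on that scale Six3 stood at 1.19, 1.92 and 3.24 in the controls and at 10.8, 4.30 and 3.37 in the knockouts. Otx1 stood at 2.49, 4.66 and 4.51 FPKM against 8.96, 7.82 and 4.94 FPKM, and the closest pair was control 2 and Ybx1-KO 3. Nr2f2 stood at 6.88, 15.1 and 9.40 FPKM against 21.6, 17.0 and 17.8 FPKM. Each had p = 0.1 in the exact permutation test, and 5.87% of all tested genes did the same in that direction. The TMM factor of Ybx1-KO 3, 1.51, is what lowers that library on the CPM scale.

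By mean FPKM over the 6 libraries the order was Nr2f1 (30.01), Lhx2 (27.4), Nr2f2 (14.6), Emx2 (9.46), Otx1 (5.56), Six3 (4.13), Emx1 (2.33) and Dmrta2 (1.75). No neighbours in that order kept it in all 6 libraries. Otx1 was above Six3 in 5, Emx1 above Dmrta2 in 2, and each other neighbour above the next in 4. The make-up of the set turned with the library. Lhx2 was the first of the 8 in control 1 and control 3, at 46.7% and 43.2% of their summed FPKM, and Nr2f1 was the first in control 2 and in every knockout, at 27.9% to 41.4%. Emx1 had rank 5 in control 1 and 3 and last in the other 4 libraries. For these ranks, too, control 2 went with the Ybx1-KO libraries.

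**Figure D3:**
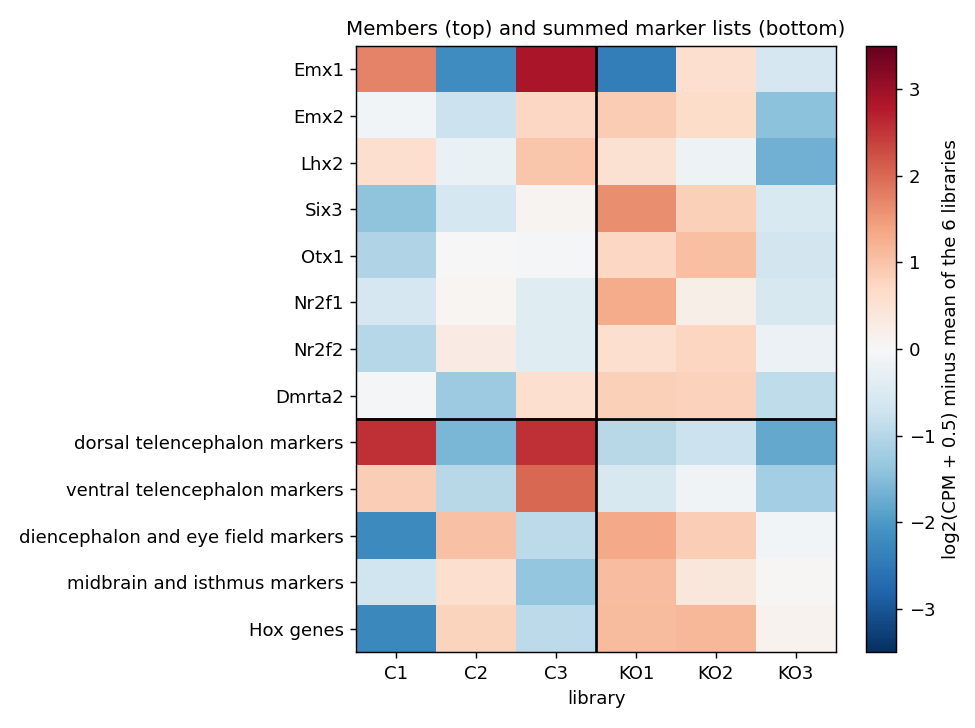
Colours give log2(CPM + 0.5) minus the mean of the 6 libraries, for the 8 factors (top) and the summed regional marker lists (bottom), in control (C1 to C3) and Ybx1-KO (KO1 to KO3) libraries. Emx1 shares its red cells in C1 and C3 with the dorsal telencephalon markers, and Lhx2 is also reddest in C3. The other 6 factors are reddest in KO1 or KO2, with Emx2 and Dmrta2 also red in C3.

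Set against the dorsal telencephalon markers, all 8 factors had a higher mean log2 ratio in the knockouts, as did 99.8% of all tested genes, since the summed markers were low there, so nothing particular to the factors can be read from that direction. The Six3 ratio was -7.09, -2.13 and -5.57 in the controls and -0.54, -1.55 and -1.85 in the knockouts. The Dmrta2 ratio was -7.62, -4.67 and -6.93 in the controls and -3.18, -3.44 and -4.06 in the knockouts. These were the 2 of the 8 factors whose groups did not overlap (exact permutation test, p = 0.1 each), against 3.63% of all tested genes, and in both control 2 was the closest to the knockouts. Against all 26 forebrain markers the same 2 factors did not overlap, against 8.96% of genes, and the difference for Emx1 was 0.01. With Neurod2, Neurod6 and Tbr1 left out of the reference, which are genes of young neurons, both overlapped (differences of 2.05 and 1.29, with 0.220% of genes not overlapping in that direction), and the differences of Emx1 (-0.85) and Lhx2 (-0.11) turned negative. Neurod6 alone gave 491 and 345 of the CPM in control 1 and control 3.

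The genes closest to each factor across libraries were sought among 97 genes of the regional and pathway lists with a mean of at least 10 counts. They are given as a description, since depth, region and genotype all differ between the 6 libraries and cannot be separated. Emx1 was nearest to Dlx5 (Pearson r = 0.97 of log2 CPM over 6 libraries), a ventral telencephalon gene, and to the cortical neuron gene Tbr1 (0.92). Emx2 and Dmrta2 were nearest to Dmrt3 (0.94 each) and to each other (0.92). Lhx2 was nearest to the ventral telencephalon genes Sp9 (0.93) and Nkx2-1 (0.90). These 4 factors thus had telencephalic genes nearest to them, and the other 4 did not. Likeness to the summed dorsal telencephalon markers was uneven among the 4, with r of 0.85 (Emx1), 0.73 (Lhx2), 0.43 (Emx2) and 0.39 (Dmrta2). Without Ybx1-KO 3 those of Emx2 and Dmrta2 were 0.17 and 0.23, and the r of Lhx2 with Sp9 was 0.74. For the other 4, r with these summed markers lay between -0.72 (Nr2f2) and -0.33 (Six3) over 6 libraries. Six3 was nearest to the ligand Shh (0.95) and to Hoxb8 (0.90), and Otx1 to Nr2f2 and the corepressor Tle3 (0.92 each). Nr2f1 was nearest to the midbrain and isthmus gene En1 (0.99) and to the diencephalon and eye field gene Nkx2-4 (0.97). Nr2f1, En1 and Nkx2-4 were each highest in Ybx1-KO 1, at 334, 30.1 and 16.0 CPM. Nr2f2 was nearest to Hoxc5 and Hoxb5 (0.98 each). The r of Nr2f2 with summed Hox CPM was 0.97, and that of Emx1 was -0.72.

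**Figure D4:**
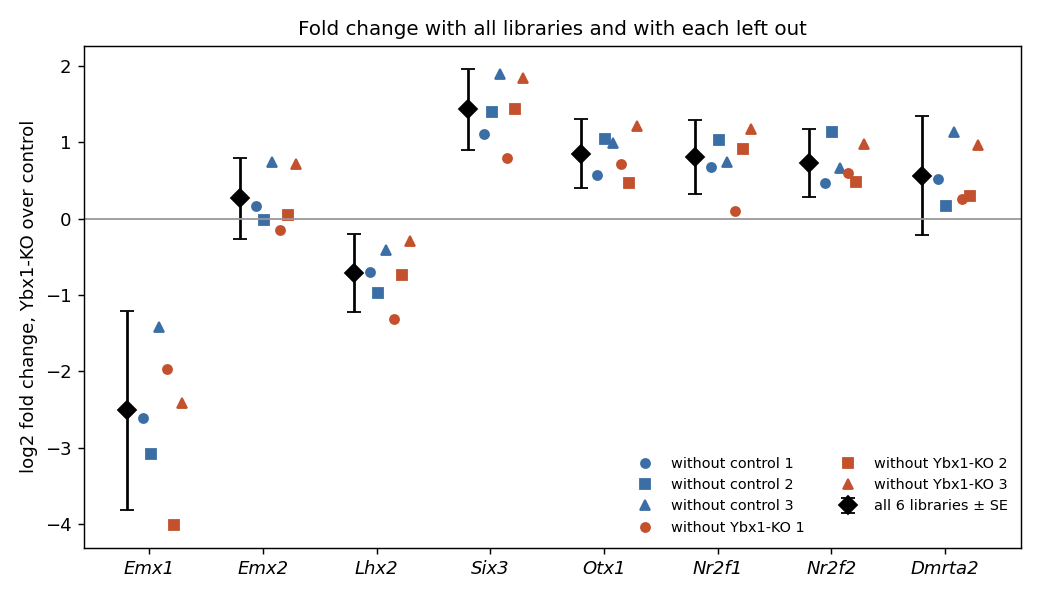
Log2 fold change of Ybx1-KO over control for each factor, from edgeR with all 6 libraries (black diamonds, bars are ± SE) and with each library left out (coloured points). Only the Emx2 points lie on both sides of 0, and Emx1 spans the widest range, from -4.01 to -1.42.

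The pathway around the factors gave no called gene either. Of 9 ligands of the patterning centres, 7 were tested, with 5 above 0 and a median log2 fold change of 0.52. Those below 0 were Bmp4 (-0.55) and Fgf18 (-0.03). The most abundant ligands, Fgf15 (0.52 ± 0.46, adjusted p = 0.60, edgeR) and Bmp7 (0.46 ± 0.46, adjusted p = 0.64, edgeR), overlapped between the groups. Wnt8b, a ligand of the cortical hem, stood at 1.23, 3.32 and 2.85 CPM in the controls and at 6.25, 11.96 and 7.13 CPM in the knockouts. Its groups did not overlap, and the log2 fold change was 1.77 ± 0.72 (adjusted p = 0.44, edgeR). Of the 9 ligands, 3 did not overlap with Ybx1-KO higher, against 4.98% of all tested genes. Wnt8b is also one of the dorsal telencephalon markers. Shh, the ventral signal, stood at 2.55, 5.62 and 4.75 CPM in the controls and at 20.3, 9.71 and 5.46 CPM in the knockouts. Fgf8, the ligand of the anterior ridge and the isthmus, stayed at or below 1.02 CPM in every library and was not tested.

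Of the 3 secreted Wnt inhibitors, 2 were above 0, with a median of 0.21, and Dkk1 stood between 0.85 and 3.36 CPM. Of 11 partner factors, 10 were tested, with 7 above 0 and a median of 0.16. Pax6, which specifies cortical progenitors, stood between 36.1 and 55.3 CPM and differed little between libraries (log2 fold change 0.24 ± 0.36, adjusted p = 0.76, edgeR). The LIM cofactor Ldb1, through which Lhx2 acts, stood between 46.0 and 199 CPM. Of 6 paralogues, 4 were tested, with 2 above 0 and a median of 0.14. Nr2f6 had a log2 fold change of 1.21 ± 0.52 (adjusted p = 0.44, edgeR), and Six6 and Dmrta1 were not tested.

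The regional marker lists varied among their genes and included fold changes on both sides of 0. Of 9 dorsal telencephalon markers 8 were tested, with 6 below 0, a median log2 fold change of -2.76 and 0 called. Of 9 ventral telencephalon markers 8 were below 0 with a median of -1.07. Of 5 diencephalon and eye field markers tested 4 were above 0 with a median of 1.26. Of 35 Hox genes tested 33 were above 0 with a median of 1.19. Fezf2, a cortical progenitor factor, stood at 56.3, 3.36 and 97.6 CPM in the controls and at 6.59, 10.5 and 4.90 CPM in the knockouts, so that control 2 was the lowest library of the 6. The part of regional make-up, or of what the globin share follows, in the values of the 8 factors was not tested, and with 1 control library among the low ones and no knockout among the high ones, genotype and make-up cannot be told apart in these 6 libraries. The summed level of the mesenchyme and meninges markers did not overlap between the groups, at 171 to 916 CPM in the controls and 95.1 to 158 CPM in the knockouts. Of the 10 genes taken singly, 1 did not overlap (Lum, lower in Ybx1-KO), against 8.16% of all tested genes in that direction. Of 8 tested, 0 were above 0. The part of these markers in the values of the factors was not tested.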

How the data were processed

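Total RNA of Sox2-eGFP-sorted NPCs was sequenced in 6 libraries. The authors counted read pairs on genes of a GENCODE annotation with HTSeq 0.6.1p1 (CASAVA is also named in the submitters' processing notes) and deposited raw counts by gene symbol, without normalization or pooling. The strand setting and the aligner are not given in the sources used here. The 5 tally rows that name no gene held 75.3% to 92.8% of read pairs and were left out.

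Counts were tested in R 4.3.3 with edgeR 4.0.16 (quasi-likelihood, TMM, Benjamini-Hochberg over all tested genes), for genes that averaged over 1 FPKM in the controls or the knockouts. Lengths of exons and coordinates came from GENCODE M21 on GRCm38 (47624 symbols matched, 356 by an older symbol, 3753 unmatched). limma-voom 3.58.1, DESeq2 1.42.0, other scalings and filters, and leaving out libraries were alternatives. Single values used two-sided exact permutation tests of log2(CPM + 0.5), and figures were drawn with matplotlib 3.10.9. A floor of 3 counts was 0.138 to 0.42 TMM CPM. Such limits cover counting error only. The test was tested on simulated data, where at the dispersion of these libraries it called hardly any of the genes changed 4-fold or 8-fold, so a lack of calls carries little information. The members and lists were chosen with earlier results of these data known. Named genes were the 8 factors, Ybx1, paralogues, antisense neighbours and the 2 most alike genes per factor. The plan also set the 2 most abundant genes of each list, and not all of these are named here. Other list genes named were chosen after their values were seen.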

Additional observations from a re-analysis of the deposited data

How the results depend on the processing

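Over 21 alternatives, 162 of 168 values of the 8 log2 fold changes kept their direction without a call. Emx2 turned negative in 5, at -0.02 without control 2 and -0.15 without Ybx1-KO 1 (-0.025 and -0.17 when the genes tested were held fixed; with a library left out it ran from -0.17 to 0.74), and -0.25 when libraries sharing a title number were summed, and Emx1 was called lower (-4.01, adjusted p = 0.0108, edgeR) without Ybx1-KO 2, so that 0 to 1 of the 8 were called lower and 0 higher with a library left out. Over all genes, the 0 called became 180 with DESeq2, 193 with no filter and 207 with the title numbers summed, and 0 to 725 with a library left out. With the genes tested held fixed, which was added after seeing the data, these were 0 to 419 (71 without control 2, 28 without Ybx1-KO 1, 419 without Ybx1-KO 2 and 46 without Ybx1-KO 3). The cause was not tested. The median of all genes, 0.31, moved to 0.51 with total-count scaling, 0.70 with no filter, 0.08 with filterByExpr and 0.01 without Ybx1-KO 3. Ratios to dorsal telencephalon markers without Neurod2, Neurod6 and Tbr1 reversed for Emx1 (-0.85) and Lhx2 (-0.11). Emx1 had 0 counts in Ybx1-KO 1, where 3 counts would be 0.335 CPM. No paired analysis was possible because the groups share no title number, and the replicate numbers used here follow accession order.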
